A study of Mus musculus with 57 samples.

Results

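The genes described here are the potassium channel genes and the hyperpolarization-activated cation (HCN) channel genes of the mouse prefrontal cortex. The rule that picks them goes by name and level and uses no measured change, although the family itself was chosen with earlier results of these data known. It takes every row of the deposited table whose mouse symbol begins with Kcn, or is Hcn followed by a digit, with a mean value of at least 10. Kcna1, Kcnc1, Kcnc2, Kcns3, Kcnq1ot1 and antisense transcripts were set aside by the rule. Of 94 symbols that met the rule on names, 81 passed the minimum and 13 did not, and the 81 were part of 16659 genes tested. The highest means under the minimum were those of Kcnj15, Kcnn4 and Kcne3, at 6.61, 6.56 and 4.81. The lowest means above it were those of Kcnk15, Kcnj5 and Kcnrg, at 10.5, 11.7 and 12.5.

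The study measured polyadenylated RNA in prefrontal cortex of Shank2 heterozygous (HT) and wild-type (WT) mice of the C57BL/6N strain, of both sexes, at postnatal day 25. Shank2 encodes a scaffold protein of the excitatory postsynaptic density. The pups had been given lithium, fluoxetine or vehicle through the milk of their mothers for 3 weeks, between postnatal days 3 and 24. There were 10 libraries each of HT mice on lithium, HT mice on fluoxetine, HT mice on vehicle and WT mice on fluoxetine, 9 of WT mice on lithium and 8 of WT mice on vehicle, in all 30 HT and 27 WT libraries. The labels name neither the Shank2 allele nor the litter of any mouse, so the p-values below measure the spread among these libraries only.

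Potassium channels set the resting potential of neurons, end their action potentials and limit how often they fire. Voltage-gated (Kv) channels open on depolarization, large and small conductance channels (BK and SK) open when calcium enters, inward rectifier (Kir) and tandem-pore channels carry current near rest, and HCN channels, which also pass sodium, open on hyperpolarization and pull the membrane back up. Channels are assembled from pore-forming subunits, and many carry auxiliary subunits such as the Kv beta subunits, the calcium-binding KChIP proteins of Kv4 channels, or the BK beta subunits, which change their number at the membrane or their gating.

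The values are estimated read counts that the authors normalized for differences in depth, called normalized counts below. They summed to 30378900 to 33234600 per library. Shank2 itself averaged 4388 ± 322 (SD, n = 30) in HT libraries and 9882 ± 1086 (SD, n = 27) in WT libraries, and the ranges of the genotypes did not overlap. Markers of excitatory cortical neurons were present in every library, with sums of 175251 to 250593 over the list. Some libraries also carried more RNA of striatal projection neuron markers than the rest: over the 17 listed genes the sums ran over 13874 to 28306 in HT lithium, 14358 to 25449 in WT lithium, 13180.3 to 36079 in HT fluoxetine, 13416 to 44279.5 in WT fluoxetine, 14259 to 16728 in HT vehicle and 13333 to 52494 in WT vehicle libraries. In 7 libraries the sum exceeded 30000. Isl1 of that list was at 0 in 22 of the libraries and Ido1 in 1. The library of WT vehicle male 2 stood apart in the other respect that touches these genes: its values were low for long transcripts, as given with the lithium results below.

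Per kilobase of transcript, the abundant members came from many subfamilies. Kcnma1, the pore of the BK channel, stood at 3019, Kcnab2, a Kv beta subunit, at 2918, and Kcnip2, a KChIP, at 2413 normalized counts per kb. The highest member of the Kir channels was Kcnj4 with 2113, of the Kv1 channels Kcna2 with 2093, of the ether-à-go-go (EAG) family Kcnh7 with 1836, of the tandem-pore channels Kcnk1 with 1684 and of the HCN channels Hcn2 with 1115 normalized counts per kb. The 12 auxiliary subunits together held 10565, the 13 Kir members 7217, the 8 EAG family members 4695 and the 5 Kv1 members 3284 normalized counts per kb. At the other end lay Kcnj5, a subunit of G protein-gated Kir channels, with 3.76. Of the 81 members, 40 had a mean of at least 1000 normalized counts and 10 a mean under 50, so the counting error of the last 10 is the larger.

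**Figure D1:**
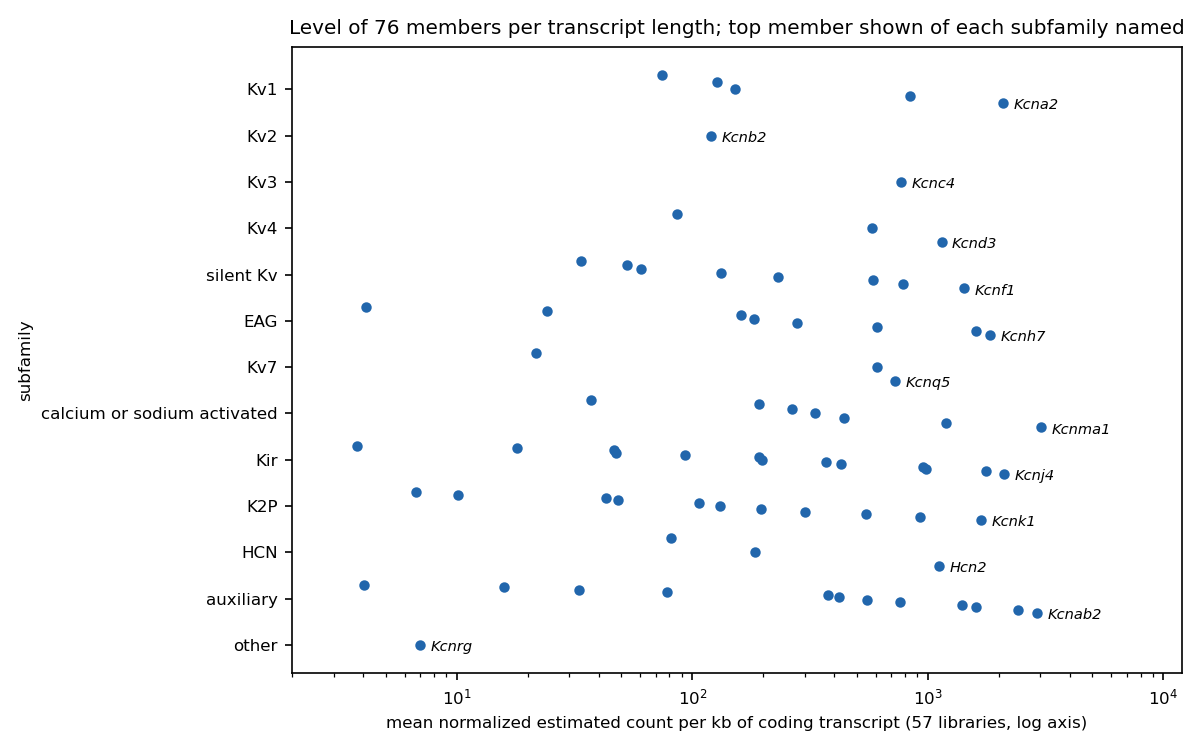
Mean level of 76 channel genes over all libraries, in normalized counts per kilobase of transcript on a log axis, by subfamily; each point is 1 gene and the highest gene shown of each subfamily is named. Kcnma1 is the highest point at 3019 and Kcnj5 the lowest at 3.76 normalized counts per kb.

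The levels of the channel genes differed among the 6 combinations of genotype and drug. A test of any difference among these 6 arms, in limma over all genes with Benjamini-Hochberg adjustment and a threshold of 0.05, called 23 of the 81 members (28.4%), against 14.1% of all genes tested. They were spread over the subfamilies, among them Kcna2 of the Kv1, Kcnc4 of the Kv3, Kcnh3, Kcnh7 and Kcnh8 of the EAG, Kcng4 and Kcnv1 of the silent Kv subunits, Kcnma1 and Kcnn1 of the calcium-activated, Kcnj6 and Kcnj10 of the Kir, Kcnk2 and Kcnk3 of the tandem-pore and Hcn2 and Hcn3 of the HCN genes, with 7 auxiliary subunits, namely Kcnip1, Kcnip2, Kcnip3, Kcnab2, Kcnab3, Kcne1l and Kcnmb2. None of the Kv4 genes passed that test at an adjusted p under 0.05. Kcnip1 and Kcnab2 passed this test and none of the comparisons that follow. Kcnab2 had medians of 9641 in HT lithium, 10778 in WT lithium, 10206 in HT fluoxetine, 10863 in WT fluoxetine, 10224 in HT vehicle and 10481 in WT vehicle libraries, and Kcnip1 had 635, 691, 732, 752, 613 and 716 in the same order. The comparisons that follow split the arms into genotype, lithium and fluoxetine. Each averages the sexes with equal weight, and a log2 difference is on the scale of log2 of the normalized count plus 1, which understates the change of low genes.

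Heterozygous mice had lower levels of 9 channel genes than WT mice when the 3 treatments were averaged, and higher levels of none. The 9 of 81 members (11.1%) stand against 3.74% of all genes called in that comparison and 2.12% called lower. Among them were 2 tandem-pore channels and 3 auxiliary subunits, with a gene each of the HCN, silent Kv and EAG families. The median log2 difference over all 81 members was -0.06, against 0.00 over all genes, and 24 of the 81 were above 0. In none of the 81 did the 30 HT and the 27 WT libraries separate without overlap, which 0.012% of all genes did.

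Kcnk2 encodes a tandem-pore leak channel opened by stretch and by lipids, and lies on chromosome 1, 189207930 to 189402273. Its lowest, median and highest values were 1055, 1345 and 1682 normalized counts in HT libraries, against 1219.5, 1580.0 and 1891 in WT libraries. Most HT libraries lay low: 2 of the 30 were above the WT median, though the ranges overlapped. The HT minus WT difference was -0.23 ± 0.04 (SE, adjusted p = 4.32e-05) by limma, and it was -0.23 on lithium, -0.23 on fluoxetine and -0.22 on vehicle. Within a single treatment it did not pass the threshold, with limma adjusted p values of 0.172 on lithium, 0.0988 on fluoxetine and 0.0728 on vehicle. An antisense gene, A430027H14Rik, overlaps Kcnk2 with a mean of 49.0 normalized counts against 1477 for Kcnk2; whether reads were counted by strand is not stated in the labels, so the pair may share reads.

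Hcn2 encodes an HCN channel of cortical dendrites and thalamic relay cells, on chromosome 10, 79716634 to 79736108. It had values of 2771, 3340.1 and 3874 (lowest, median and highest) in HT libraries, against 3163, 3733 and 3941 in WT libraries. Of the 30 HT libraries, 3 exceeded the WT median, so the HT values sat mostly in the lower part of a shared range. The difference was -0.12 ± 0.02 (SE, adjusted p = 0.00037) by limma, with -0.15 on lithium, -0.14 on fluoxetine and -0.09 on vehicle. Of the same family, Hcn3 and Hcn4 had log2 differences of -0.04 and -0.06, and did not pass the threshold.

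Kcng4 encodes a silent Kv subunit, one that makes no channel alone and joins Kv2 subunits, on chromosome 8, 119623854 to 119635680. It is a low gene, with 44.3, 159 and 225 normalized counts (lowest, median and highest) in HT libraries, against 151, 199.9 and 266 in WT libraries. All but 1 of the 30 HT libraries lay under the WT median. The difference was -0.50 ± 0.10 (SE, adjusted p = 0.000899) by limma, at -0.48 on lithium, -0.51 on fluoxetine and -0.51 on vehicle, the largest size of log2 difference among the 9 called genes. Kcnb2, of the Kv2 family that it joins, had a difference of -0.11 (limma adjusted p = 0.322), which did not pass the threshold in this fit.

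Of the KChIP subunits, Kcnip3 had values of 3397, 4205 and 5271 in HT libraries, against 3365, 4640.1 and 5431 in WT libraries, and Kcnip2 had 2057, 2740.0 and 3223 in HT libraries, against 2274, 3021 and 3613 in WT libraries (lowest, median and highest). Of the 30 HT libraries, 1 exceeded the WT median for Kcnip3 and 8 did for Kcnip2. The differences were -0.15 ± 0.03 (SE, adjusted p = 0.0061) for Kcnip3 and -0.13 ± 0.03 (SE, adjusted p = 0.012) for Kcnip2 by limma. The log2 differences of Kcnip3 were -0.17 on lithium, -0.15 on fluoxetine and -0.12 on vehicle. Those of Kcnip2 were -0.02 on lithium, -0.11 on fluoxetine and -0.25 on vehicle. The pore subunits that KChIPs join, Kcnd1, Kcnd2 and Kcnd3 of the Kv4 family, had no call in this fit. Their differences were mixed in sign, at 0.09, -0.08 and 0.04, with limma adjusted p values of 0.415, 0.178 and 0.534.

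Further calls were less firm. They included Kcnab3, a Kv beta subunit, at -0.22 ± 0.06 (SE, adjusted p = 0.0341), Kcnh8, an EAG family channel, at -0.47 ± 0.14 (SE, adjusted p = 0.044), and Kcnk3, an acid-sensitive tandem-pore channel, at -0.11 ± 0.03 (SE, adjusted p = 0.0497) by limma. Kcnh8 is among the lowest members, with 3.72, 13.6 and 30.6 (lowest, median and highest) in HT libraries, against 9.02, 17.9 and 44.8 in WT libraries. With 1 library left out at a time, Kcnab3 passed in 50 of 57 fits, Kcnh8 in 24 and Kcnk3 in 20, while Kcnk2, Hcn2, Kcng4, Kcnip2 and Kcnip3 passed in all 57. Of these 5, Kcnk2, Hcn2 and Kcng4 also passed under every other setting tried. Kcnip2 and Kcnip3 lost the call in at least 1 of those settings. The count of 9 dropped to 5 without HT lithium female 2, without HT lithium male 3 or without WT lithium female 1, and also to 5 without the 7 libraries highest in striatal markers, a choice made after seeing the data. Kcnk3 overlaps the opposite-strand gene Gm9899 over 229 bases; Gm9899 has a mean of 730.2 and Kcnk3 one of 744 normalized counts, and the pair may share reads there.

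Marker genes of other cell classes moved in the same comparison. Of 5 parvalbumin interneuron markers 2 were lower in HT mice, with a list median of -0.26, and of 8 astrocyte markers 2 were lower, with a median of -0.10. Tac1, with a mean of 507 normalized counts, is on both the parvalbumin and the striatal list, so these lists are not separate. The summed parvalbumin markers ran over 3476 to 5158 in HT lithium, 4481 to 5392 in WT lithium, 3436 to 4987 in HT fluoxetine, 4036 to 5351 in WT fluoxetine, 3545 to 4455 in HT vehicle and 3307 to 5084 in WT vehicle libraries, and none of these markers was at 0 in any library. The summed astrocyte markers ran over 148076 to 171850.0 in HT lithium, 150396 to 181925 in WT lithium, 130621 to 157353 in HT fluoxetine, 148078 to 176187 in WT fluoxetine, 136392 to 174064 in HT vehicle and 104930.0 to 190593 in WT vehicle libraries, also with none at 0. Their part in the channel results was not tested, and in whole tissue fewer cells of a type and less RNA per cell cannot be told apart. Lists with few or no calls also had lower medians in HT mice. The 9 olfactory bulb markers had a median of -0.31 and no call, the 16 striatal projection neuron markers tested, of 17 listed, -0.26 with 1 called lower, and the 6 oligodendrocyte markers -0.22 with no call. Their sums ran over 945 to 13552 in HT and 1044 to 20955 in WT libraries for the olfactory bulb, over 13180.3 to 36079 in HT and 13333 to 52494 in WT libraries for the striatum and over 55964 to 155967 in HT and 70619.9 to 186947 in WT libraries for oligodendrocytes. Of the markers of these 3 lists, Isl1 was at 0 in 22 libraries and Ido1 in 1, both on the striatal list. Of 6 choroid plexus markers tested 1 was lower, with a median of -0.07, and of 7 markers of other interneurons 1 was higher, with a median of -0.09. With the striatal marker level as a term in the fit, 6 of the 9 genotype calls remained, namely Kcnk2, Hcn2, Kcng4, Kcnip2, Kcnip3 and Kcnab3, and 3 were lost, with limma adjusted p values of 0.0793 for Kcnh8 and 0.0796 for Kcnk3 among them.

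**Figure D2:**
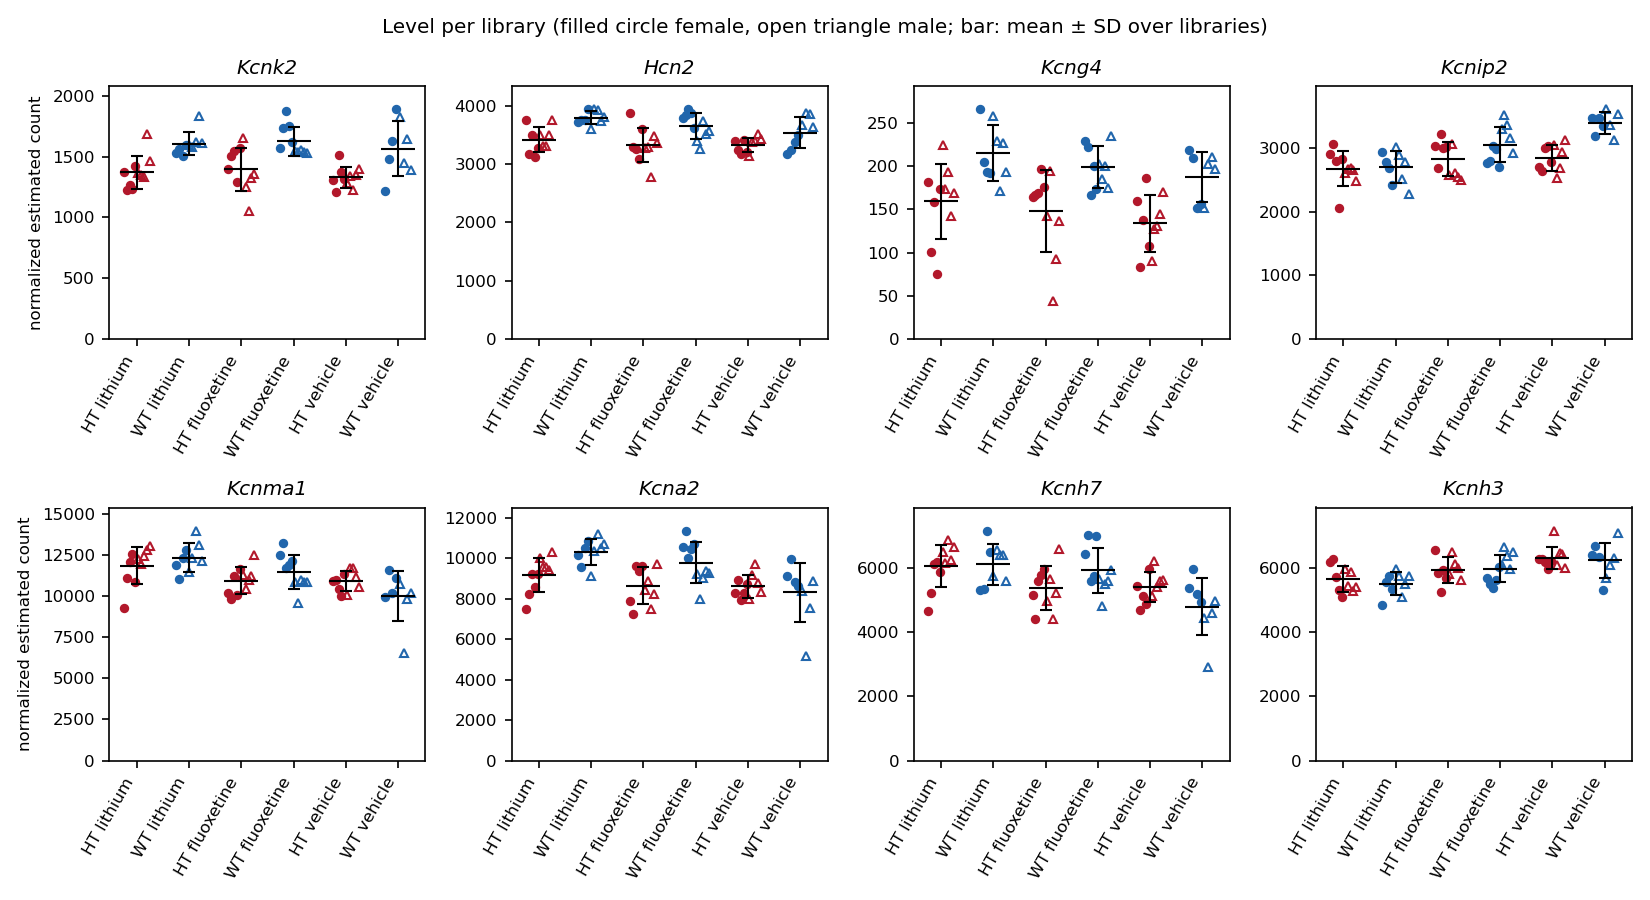
Normalized counts of 8 channel genes in every library, with the arms from left to right as HT lithium, WT lithium, HT fluoxetine, WT fluoxetine, HT vehicle and WT vehicle; filled circles are females, open triangles males, and bars give the mean and SD of an arm. For Kcnk2, Hcn2 and Kcng4 the HT arms sit lower within an overlapping range, and for Kcnip2 the WT vehicle arm sits highest, at 3121 to 3613.

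**Figure D3:**
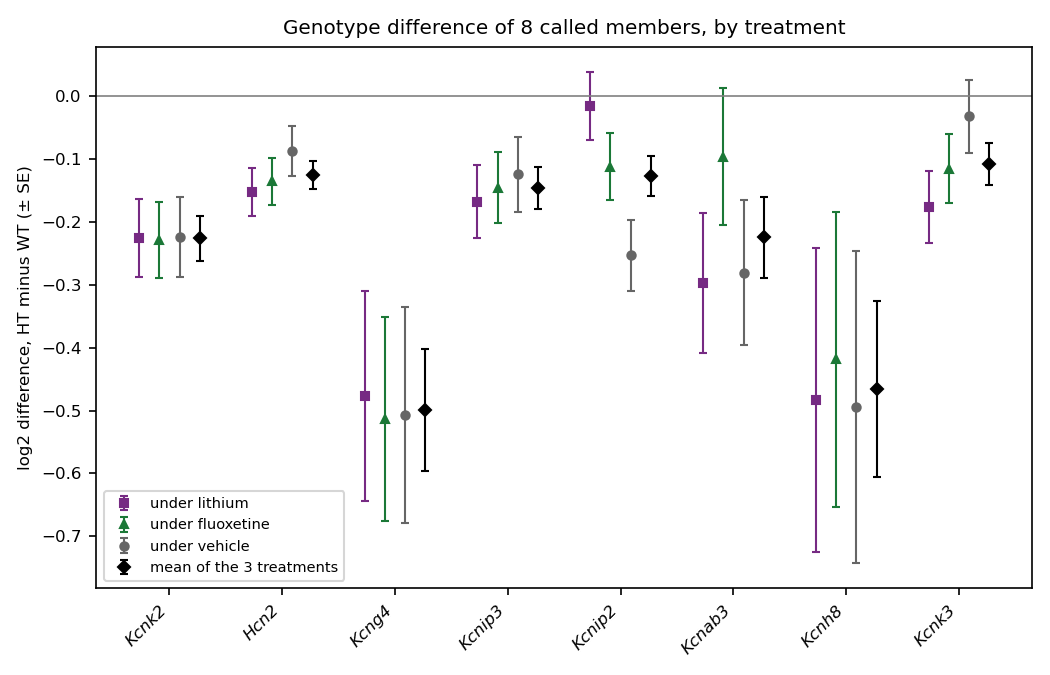
HT minus WT log2 difference with its SE for 8 genes called over the mean of the treatments, shown for lithium, fluoxetine, vehicle and the mean of the 3. Kcnk2 lies between -0.23 and -0.22 in the 3 treatments, while Kcnip2 gives -0.02 on lithium and -0.25 on vehicle.

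The sequences in front of the start are shown for Hcn2, Kcng4 and Kcnip2, since they held their genotype difference through every library left out and have 1 start each in the RefSeq table; Kcnk2 has 4 starts there and Kcnip3 more than 1. Each is the 250 bases before the start, from RefSeq with build GRCm38.p6, written 5′ to 3′ on the strand of the gene. Capitals mark matches, on either strand, to 4 motifs. The GC box was read as GGGCGG and the CCAAT box by the letters of its name. The TATA box was read as TATAAA. The cyclic AMP response element was read as TGACGTCA. The Hcn2 stretch is chr10:79716384-79716633 on the plus strand, that of Kcng4 chr8:119635681-119635930 on the minus strand and that of Kcnip2 chr19:45816064-45816313 on the minus strand.
Hcn2: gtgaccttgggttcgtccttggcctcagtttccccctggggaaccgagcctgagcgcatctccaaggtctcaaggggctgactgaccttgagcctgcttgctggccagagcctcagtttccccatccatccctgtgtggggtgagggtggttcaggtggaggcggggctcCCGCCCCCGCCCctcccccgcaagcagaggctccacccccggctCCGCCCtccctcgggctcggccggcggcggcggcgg
Kcng4: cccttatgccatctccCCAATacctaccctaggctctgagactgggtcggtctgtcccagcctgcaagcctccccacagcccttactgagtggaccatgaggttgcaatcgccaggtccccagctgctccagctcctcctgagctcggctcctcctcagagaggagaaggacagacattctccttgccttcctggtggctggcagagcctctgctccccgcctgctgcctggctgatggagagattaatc
Kcnip2: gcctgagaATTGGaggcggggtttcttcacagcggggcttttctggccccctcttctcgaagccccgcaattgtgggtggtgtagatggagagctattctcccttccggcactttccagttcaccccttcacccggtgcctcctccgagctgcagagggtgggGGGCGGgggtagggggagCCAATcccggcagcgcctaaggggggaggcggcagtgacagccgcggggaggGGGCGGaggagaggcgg
The Hcn2 stretch, with 70.4% G or C, holds 3 GC boxes in its last 100 bases, the Kcng4 stretch, with 60.4%, 1 CCAAT box, and the Kcnip2 stretch, with 66.8%, 2 GC boxes and 2 CCAAT boxes. None of the 3 holds the TATA or the cyclic AMP motif in this window. Of the 81 members 57 matched the table, with 76 starts. A GC box lay in 47.4% of these starts and in 32.7% of all 32851 starts of the table, a CCAAT box in 27.6% and 33.8%, a TATA box in 3.95% and 12.4% and the cyclic AMP motif in 0% and 1.55%. The matches describe these letters only.

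On vehicle alone, 1 channel gene passed the threshold between the genotypes, against 0.762% of all genes called. Kcnip2 had lowest, median and highest values of 2529, 2860.5 and 3128 in HT vehicle libraries, against 3121, 3415 and 3613 in WT vehicle libraries. The arms touched only at their edges, where the highest HT library reached just past the lowest WT library. The difference was -0.25 ± 0.06 (SE, adjusted p = 0.023) by limma. It was no longer called without HT vehicle male 3 (adjusted p = 0.0501), with only the vehicle groups in the fit (adjusted p = 0.0879) or without the 7 libraries high in striatal markers (adjusted p = 0.1004). In the same comparison 0 of the striatal markers were called, with a list median of -0.67, and 0 of 9 olfactory bulb markers, with a median of -0.77. Of 8 astrocyte markers 1 was lower, with a median of -0.11. Of 6 choroid plexus markers tested 1 was lower, with a median of -0.49. On fluoxetine and on lithium, 0 members passed between the genotypes, against 0.222% and 0.114% of all genes, and 16 and 18 members had an unadjusted p under 0.05, as did 10.5% and 7.75% of all genes.

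Lithium gave the most calls among channel genes, and all of those calls within a genotype came from WT mice. In WT mice on lithium against WT mice on vehicle, 17 of 81 members (21%) passed the threshold, 13 higher and 4 lower, against 8.53% of all genes called, 5.45% higher and 3.08% lower. The median log2 difference was 0.10 over the members and -0.01 over all genes, and 60 of the 81 were above 0. In HT mice on lithium against HT mice on vehicle, 0 members passed, against 0.888% of all genes, 10 had an unadjusted p under 0.05 (12.8% of all genes), and the median over the members was 0.04. A call in WT and none in HT mice does not show that the genotypes differ in their response: the test of that difference called 0 members and 0% of all genes, with 12 members at an unadjusted p under 0.05, against 7.31% of all genes.

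By subfamily, the WT lithium differences had positive medians in the pore-forming families given here and a negative one in the auxiliary subunits. The Kv1 genes had a median log2 difference of 0.31 with 3 of 5 called higher, and the 7 calcium- or sodium-activated genes a median of 0.23 with 3 called higher. The Kir genes had a median of 0.04 with 1 called higher. The EAG genes, with a median of 0.10, had 1 called higher and 1 lower. The silent Kv, Kv4 and tandem-pore genes had medians of 0.09, 0.12 and 0.04 and no call, and the 12 auxiliary subunits had a median of -0.05 with 3 called lower. In HT mice the medians of these families lay between -0.05 for Kv4 and 0.09 for Kv1.

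**Figure D4:**
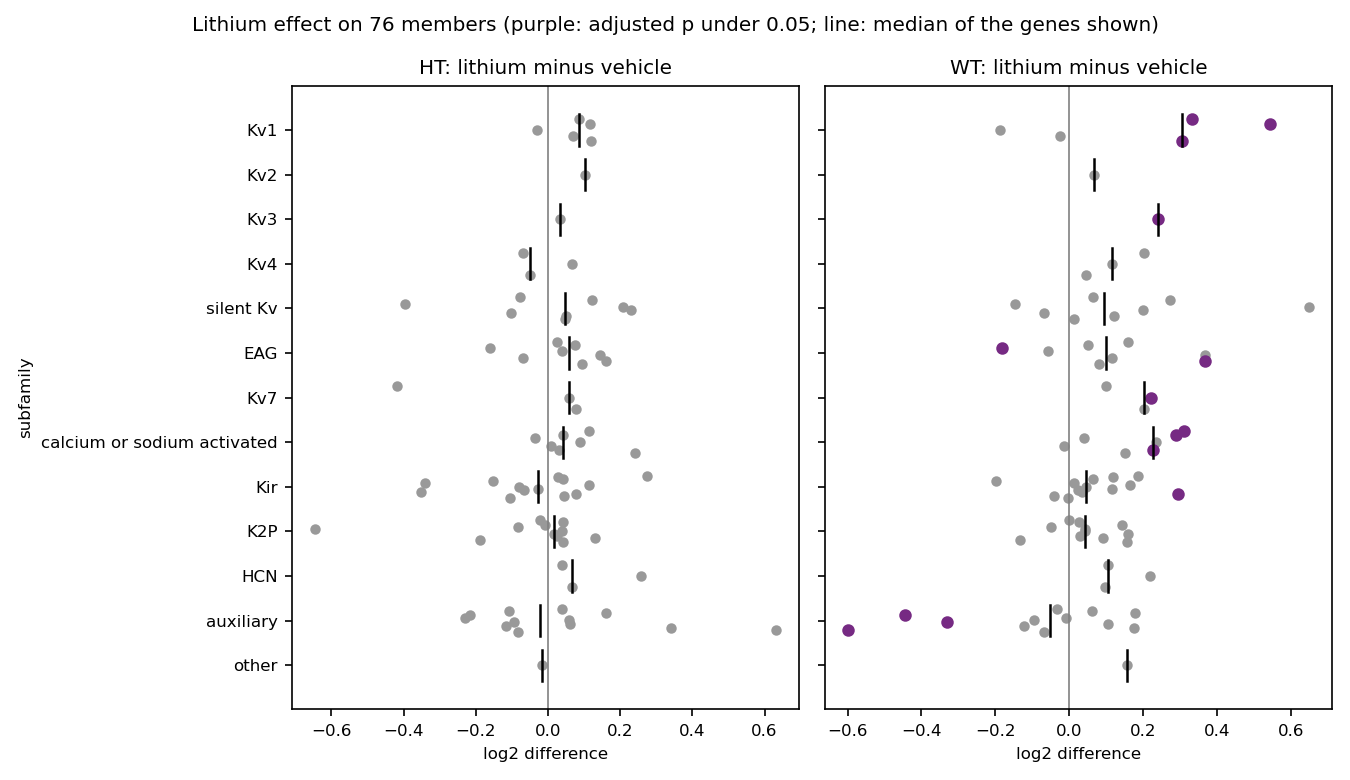
Lithium minus vehicle log2 difference of 76 channel genes by subfamily, in HT mice on the left and WT mice on the right; purple points passed the threshold and the short lines are medians of the genes shown in a subfamily. The Kv1 median is 0.09 in HT mice and 0.31 in WT mice, and no point is called in the HT panel.

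Kcna2, which encodes a Kv1 subunit of axons, had lowest, median and highest values of 9098, 10501 and 11172 in WT lithium libraries, against 5157, 8709 and 9965 in WT vehicle libraries. All 9 lithium libraries were above the vehicle median, and the ranges overlapped in their middle. The difference was 0.33 ± 0.07 (SE, adjusted p = 0.0015) in WT mice and 0.09 ± 0.06 (SE, adjusted p = 0.582) in HT mice by limma. The other Kv1 calls in WT mice were Kcna6, at 0.31 ± 0.09 (SE, adjusted p = 0.0234), and Kcna3, at 0.54 ± 0.16 (SE, adjusted p = 0.027). The Kcna3 value rests in part on WT vehicle male 2, which had 57.9 normalized counts where the next lowest library of its group had 219, and without that library the difference was 0.29 (limma adjusted p = 0.111).

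Kcnma1, the BK channel pore, had 11008, 12301 and 13969 (lowest, median and highest) in WT lithium libraries, against 6508, 10194 and 11592 in WT vehicle libraries. Again all 9 lithium libraries exceeded the vehicle median, and WT vehicle male 2 was the lowest library at 6508. The difference was 0.31 ± 0.06 (SE, adjusted p = 0.00146) by limma, and 0.23 (adjusted p = 0.00525) without that library. The other calcium- or sodium-activated calls were Kcnn1, an SK channel, at 0.29 ± 0.09 (SE, adjusted p = 0.0284), and Kcnt2, a sodium-activated channel, at 0.23 ± 0.08 (SE, adjusted p = 0.0476).

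Kcnc4, a fast inactivating Kv3 channel, had 2857, 3142 and 3376 in WT lithium libraries, against 2096, 2702 and 2917 in WT vehicle libraries (lowest, median and highest). The lithium libraries filled the upper part of the range, with a narrow overlap. The difference was 0.24 ± 0.05 (SE, adjusted p = 0.00473) by limma. Kcnh7, an EAG family channel of the ERG type, had 5334, 6412 and 7179.7 in WT lithium libraries, against 2913, 4960.1 and 5974 in WT vehicle libraries, with all 9 lithium libraries above the vehicle median. Its difference was 0.37 ± 0.08 (SE, adjusted p = 0.0033) by limma; Gca lies on the opposite strand over part of Kcnh7.

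Also higher in WT mice on lithium were Kcnj6, a G protein-gated Kir channel, at 0.30 ± 0.07 (SE, adjusted p = 0.00744), and Kcnq3, a Kv7 channel, at 0.22 ± 0.07 (SE, adjusted p = 0.0436) by limma. For comparison, the HT differences were 0.08 for Kcnj6 and 0.06 for Kcnq3, both short of the threshold.

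The 4 members lower in WT mice on lithium were 3 auxiliary subunits and 1 EAG family channel. Kcnip2 had lowest, median and highest values of 2274, 2773 and 3021 in WT lithium libraries, against 3121, 3415 and 3613 in WT vehicle libraries. It was the only one of the 81 members whose WT lithium and WT vehicle libraries did not overlap, which 0.288% of all genes did. The difference was -0.33 ± 0.06 (SE, adjusted p = 0.000497) in WT mice and -0.09 ± 0.05 (SE, adjusted p = 0.465) in HT mice by limma. The WT vehicle libraries that stand high here are the same ones that enter the genotype difference of Kcnip2 on vehicle, so the contrasts share them. Kcnip2 had 2057, 2676 and 3069.7 in HT lithium libraries and 2529, 2860.5 and 3128 in HT vehicle libraries, which overlapped over most of their range.

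Kcnh3, an EAG family channel of the ELK type found in forebrain, had 4842, 5553 and 5952 in WT lithium libraries, against 5319, 6319.6 and 7072 in WT vehicle libraries (lowest, median and highest). None of the 9 lithium libraries exceeded the vehicle median. The difference was -0.18 ± 0.05 (SE, adjusted p = 0.0132) in WT mice and -0.16 ± 0.04 (SE, adjusted p = 0.0583) in HT mice by limma, the smallest adjusted p among members in HT mice on lithium. Kcne1l, an auxiliary subunit of the KCNE family, differed by -0.44 ± 0.12 (SE, adjusted p = 0.0137) in WT mice, and Kcnmb2, the BK beta subunit that makes BK channels inactivate, by -0.60 ± 0.19 (SE, adjusted p = 0.0424).

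Kcnmb2 was the member whose lithium difference had the most opposite values in the genotypes. Its lowest, median and highest values were 56.4, 107 and 153 in HT lithium and 50.6, 60.2 and 115 in HT vehicle libraries, against 49.6, 65.6 and 106 in WT lithium and 56.0, 90.7 and 171 in WT vehicle libraries. HT mice had higher values with lithium and WT mice lower ones, with overlap in both. The lithium difference in HT mice, 0.63 ± 0.18 (SE, adjusted p = 0.0649) by limma, did not pass the threshold. The HT minus WT difference between the lithium effects was 1.23 ± 0.26 (SE) with an adjusted p of 0.331 in limma over all genes, so it failed the correction, at an unadjusted p of 1.98e-05. It passed in 2 of the 37 fits that left out 1 library. These were the fits without HT lithium female 4 (1.35, adjusted p = 0.0293) and without WT vehicle male 2 (1.41, adjusted p = 0.0065).

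A property of the libraries that concerns long genes differed between the drug and vehicle arms, more for lithium than for fluoxetine. In each library, the rank correlation across genes between transcript length and the deviation of the gene from the other libraries averaged 0.0749 in HT lithium, 0.0477 in WT lithium, 0.0248 in HT fluoxetine, 0.0247 in WT fluoxetine, -0.0495 in HT vehicle and -0.0835 in WT vehicle libraries, with the lowest value, -0.331, in WT vehicle male 2. The channel genes are long: their median transcript length was 2478.5 bases, against 1560.0 bases over the genes tested. The WT lithium difference had a median of 0.14 in the 40 longer members and 0.04 in the other 41. With this library trend as a term in the fit, 2 of the 17 WT lithium calls remained, Kcnip2 at -0.29 (adjusted p = 0.0222) and Kcnn1 at 0.40 (adjusted p = 0.0275) in limma, against 0.378% of all genes called. The other values with that term included 0.16 (adjusted p = 0.123) for Kcna2, 0.17 (adjusted p = 0.109) for Kcnma1, 0.15 (adjusted p = 0.227) for Kcnh7, 0.25 (adjusted p = 0.0539) for Kcnc4 and -0.81 (adjusted p = 0.0569) for Kcnmb2. Since the trend and lithium moved together, an effect of the drug on long transcripts and a length trend of the libraries cannot be told apart.

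**Figure D5:**
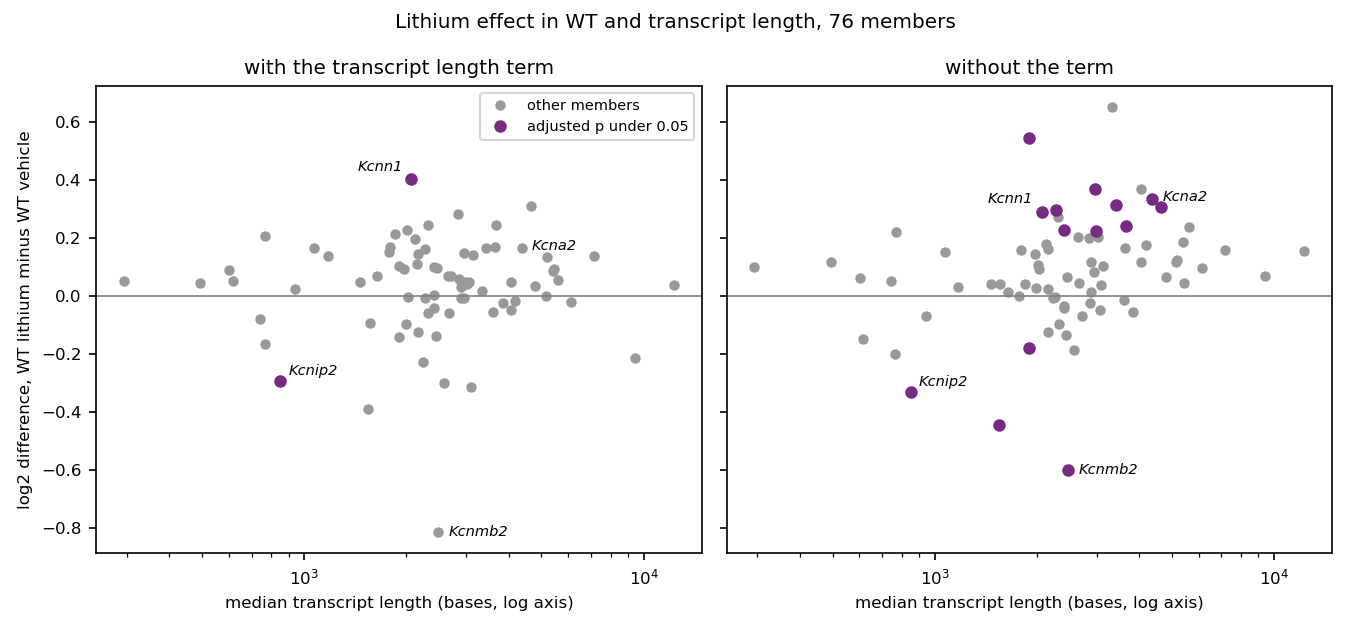
Lithium minus vehicle log2 difference of 76 channel genes in WT mice against transcript length, with the library length trend as a term in the fit on the left and without it on the right; purple points passed the threshold. The 14 purple points of the right panel become 2 in the left panel, Kcnip2 at -0.29 and Kcnn1 at 0.40.

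The count of 17 was also sensitive to single libraries: it was 11 without WT lithium female 3 and 11 without WT vehicle female 3. Of the 17, 9 passed with every 1 of the 17 libraries left out in turn, among them Kcna2, Kcnc4, Kcne1l, Kcnh3, Kcnh7, Kcnip2, Kcnj6 and Kcnma1, and Kcnip2 alone also passed under every other setting tried. The others lost the call in at least 1 such fit. Without WT vehicle male 2 the limma adjusted p was 0.111 for Kcna3, 0.189 for Kcnq3 and 0.179 for Kcnt2. Without WT vehicle female 1 it was 0.0591 for Kcna6 and 0.0676 for Kcnn1, and without WT vehicle male 1 0.0806 for Kcnmb2, which passed in 5 of the 17 fits. With only the WT lithium and WT vehicle groups in the fit, 4 members were called. Cell markers moved in the same comparison. Of 5 parvalbumin interneuron markers 1 was higher, with a list median of 0.26. Of 5 thalamus markers 1 was higher, with a median of 0.02, and of 4 leptomeningeal markers 1 was lower, with a median of -0.13. The 7 excitatory cortical neuron markers had a median of 0.19 and no call, and the striatal markers a median of -0.41 and no call. The 9 olfactory bulb markers and the 6 choroid plexus markers tested had medians of -0.53 and -0.49 and no call.

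With HT and WT mice averaged, lithium against vehicle called 17 members, 14 higher and 3 lower, against 13.3% of all genes, 7.16% higher and 6.14% lower; 13 of them were also called in WT mice, whose libraries enter both. The 4 others were Hcn3 at 0.24 ± 0.06 (SE, adjusted p = 0.00353), Kcnj10, the astrocytic Kir channel that buffers potassium, at 0.23 ± 0.08 (SE, adjusted p = 0.0335), Kcnq5, a Kv7 channel, at 0.14 ± 0.05 (SE, adjusted p = 0.0367), and Kcng1, a silent Kv subunit, at 0.20 ± 0.07 (SE, adjusted p = 0.0391) by limma. Hcn3 had lowest, median and highest values of 693, 778 and 907 in HT lithium and 589.6, 654 and 775 in HT vehicle libraries, against 709, 815 and 919.6 in WT lithium and 592, 691 and 925 in WT vehicle libraries. Both genotypes had the higher median with lithium, and the ranges overlapped in each. Of the 17, 11 passed in all 37 fits that left out 1 library, Kcnj10 in 32, Kcna3 in 27, Kcng1 and Kcnq5 in 23 each and Kcnq3 in 14; without WT vehicle male 2 Kcna3 was at 0.20 and Kcnq3 at 0.10. The 3 lower members were Kcnip2, Kcnh3 and Kcne1l, at -0.21, -0.17 and -0.33. With the library length trend as a term none of these 17 remained called. The 2 members called with it, against 0.93% of all genes, were others, Kcnip3 at 0.20 (adjusted p = 0.0153) and Kcnn1 at 0.27 (adjusted p = 0.038) in limma.

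Fluoxetine gave few calls among channel genes. In WT mice 74.1% of the members had a positive log2 difference, against 51.1% of all genes, with medians of 0.062 and 0.003. For HT mice these shares were 43.2% and 49.8%, with medians of -0.014 and -0.0007. Whether these shares differ from those of all genes was not tested. In HT mice, 1 member passed against 0.33% of all genes: Kcnv1, a silent Kv subunit, had lowest, median and highest values of 2448, 2929 and 3429 in HT fluoxetine libraries, against 3353, 3545 and 3809 in HT vehicle libraries. The highest fluoxetine library just exceeded the lowest vehicle library, so the arms overlapped narrowly. The difference was -0.27 ± 0.06 (SE, adjusted p = 0.047) by limma, and it passed in 3 of the 20 fits that left out 1 library. Of 6 microglial markers 1 was lower in the same comparison, with a list median of -0.25, and markers of neighbouring regions had positive medians and no call: the 9 olfactory bulb markers had a median of 1.02 and the 16 striatal markers one of 0.52. The summed olfactory bulb markers ran over 1587 to 12389 in HT fluoxetine and 1253 to 6439 in HT vehicle libraries, and the summed striatal markers over 13180.3 to 36079 in HT fluoxetine and 14259 to 16728 in HT vehicle libraries. With the striatal marker level as a term, Kcnv1 was at -0.27 (limma adjusted p = 0.0518), and without the 7 libraries highest in striatal markers at -0.32 (limma adjusted p = 0.034). In WT mice Kcnv1 had 2948, 3297 and 3687 on fluoxetine and 2925, 3529.8 and 4505 on vehicle, a difference of -0.10 ± 0.07 (SE, adjusted p = 0.497).

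In WT mice on fluoxetine 2 members passed, against 0.84% of all genes: Kcnh7 at 0.32 ± 0.08 (SE, adjusted p = 0.0341) and Kcna2 at 0.25 ± 0.06 (SE, adjusted p = 0.0406) by limma. Kcna2 had 7980.4, 9665 and 11364 in WT fluoxetine libraries and Kcnh7 4819, 5703 and 7042 (lowest, median and highest), against the vehicle values given with lithium. These are the same WT vehicle libraries that served the lithium contrast. Without WT vehicle male 2 neither passed, with limma adjusted p values of 0.158 for Kcnh7 and 0.212 for Kcna2. With the library length trend as a term 0 members were called, as were 0% of all genes. The count of 2 ran between 0 and 6 with 1 library left out, at 0 also without WT fluoxetine females 2 or 5, WT fluoxetine males 1, 4 or 5 or WT vehicle females 3 or 4, at 1 without WT fluoxetine females 1 or 4 or WT fluoxetine male 3, at 5 without WT vehicle male 4 and at 6 without WT vehicle male 1.

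With the genotypes averaged, fluoxetine called 2 members against 4.75% of all genes, among them Kcnv1, lower at -0.18 ± 0.05 (SE, adjusted p = 0.0157) by limma. Kcnv1 passed in all 38 fits that left out 1 library. With the library length trend as a term, or without the 7 libraries high in striatal markers, 0 members were called and Kcnv1 was lost. The number of called members was 1 without HT fluoxetine female 5, HT vehicle female 3, WT fluoxetine female 2, WT fluoxetine male 4, WT vehicle females 3 or 4 or WT vehicle male 2, at 4 without HT vehicle male 2 or WT vehicle male 4, at 5 without HT fluoxetine male 3, at 6 without HT fluoxetine female 2 or WT vehicle male 1 and at 7 without WT vehicle female 1. The test of whether the fluoxetine effect differed between HT and WT mice called 0 members and 0% of all genes, with 13 members at an unadjusted p under 0.05, against 7.71% of all genes. The smallest p among them was that of Kcnh7, at -0.34 ± 0.11 (SE, adjusted p = 0.492).

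The sexes, averaged over genotype and drug, differed in 0 of the 81 members at the threshold, against 0.108% of all genes, with 4 members at an unadjusted p under 0.05 against 5.36% of all genes. The smallest of these p values was that of Kcne4, an auxiliary subunit, at 0.24 ± 0.09 (SE, adjusted p = 0.869) for females minus males by limma. The called effects had the same sign in both sexes, for all 9 genotype calls and all 17 WT lithium calls. The calls were made on the mean of the sexes, which favours equal signs among them. Of the 9 genotype calls, 2 passed in females alone and 6 in males alone, where 108 and 1606 of the 16659 genes were called. Among all 81 members, 3 were called between the genotypes in females alone and 13 in males alone. The test of the sex difference of the genotype effect called 0 members and 98 of all genes. At an unadjusted p under 0.05 it had 24 of the 81 members, against 3108 of the 16659 genes. Lithium in WT mice called 0 members and 0% of all genes in females alone, and 18 of the 81 members, 13 of them among the 17, against 10.2% of all genes in males alone. The test of the sex difference of that effect called 0 members and 0% of all genes, with 8 of 81 members (9.88%) at an unadjusted p under 0.05, against 7.96% of all genes.

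Some effects that were not called over both sexes had opposite signs in them. On fluoxetine, the HT minus WT difference of Kcnt2 was -0.26 in females and 0.24 in males, with 905 ± 103 in HT and 1085 ± 126 in WT females, and 1025 ± 115 in HT and 867 ± 72.7 in WT males (normalized counts, mean ± SD, n = 5 each). The test of the sex difference of this effect called 2 of the 81 members (2.47%), against 1.79% of all genes. For Kcnt2 the female minus male difference was -0.50 (limma adjusted p = 0.0467). It passed without WT vehicle male 2 and without the 7 libraries high in striatal markers, and did not pass with the striatal marker level as a term (limma adjusted p = 0.0923) or with the library length trend as a term (limma adjusted p = 0.077). In WT mice, the fluoxetine minus vehicle difference differed between the sexes in 5 of the 81 members (6.17%), against 2.53% of all genes. Among them were Hcn2, Kcnd3, Kcnmb4 and Kcnb2, and these 4 were not called without WT vehicle male 2.

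Genes whose products work with these channels were read from a list of 31, of which 29 were tested. In WT mice on lithium 5 of the 29 were higher, against 5.45% of all genes, and 0 lower, with a list median of 0.04. Those of Kv1 clustering at axons were Lgi1, a secreted protein, at 0.24 ± 0.04 (SE, adjusted p = 0.000929), its receptor Adam22 at 0.25 ± 0.06 (SE, adjusted p = 0.00795), and Cntnap1, a protein of the paranode, at 0.22 ± 0.07 (SE, adjusted p = 0.039) by limma. The others were the scaffold Dlg2 at 0.22 ± 0.06 (SE, adjusted p = 0.0109) and Pex5l, the auxiliary protein of HCN channels, at 0.23 ± 0.06 (SE, adjusted p = 0.0122). With the library length trend as a term, 0.378% of all genes were called in this comparison. The part of that trend in the calls on this list was not tested. In HT mice on lithium 0 of the 29 passed, against 0.888% of all genes. In WT mice on fluoxetine Adam22 was higher, at 0.25 ± 0.06 (SE, adjusted p = 0.0328), again against the same vehicle libraries. With the genotypes averaged, the fluoxetine calls included Adam22 at 0.15 and Abcc8 at 0.18. Gnai2 was lower, at -0.09 (limma adjusted p = 0.0469). The lithium calls over the genotypes included Lgi1 at 0.18, Adam22 at 0.18, Dlg2 at 0.15 and Gnao1 at 0.08. Gnai2 was lower there too, at -0.11 (limma adjusted p = 0.00707). Between the genotypes over the 3 treatments 0 of the 29 passed.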

How the data were processed

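Prefrontal cortex RNA was sequenced from stranded, poly(A)-selected libraries, per the labels' protocols. Per the submitters' processing notes, the authors used Salmon 0.11.2, R 3.6.0, DESeq2 1.19.11 and build GRCm38. The deposited table gives normalized estimated counts, used here as a signal: Salmon estimates need not be whole, and the library totals are near equal. Which annotation release, filters and strand setting entered is not stated there. The authors' table holds 51456 identifiers, 171 without a symbol. Since the deposited values are not raw counts, no count model was used.

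Values were taken as log2(value + 1). Genes averaging 10 or more were kept and fitted with limma 3.58.1 (trend and robust moderation, statmod 1.5.0, R 4.3.3) on 12 groups of genotype, drug and sex. P-values were adjusted by Benjamini-Hochberg over all 16659 genes. The code was tested on simulated data. Transcript lengths and positions come from GENCODE vM21, build GRCm38, per kb values from the median length of a gene's coding transcripts. Alternatives (pseudocount 4, minimum mean 50 or none, quantile normalization, no robust moderation, a replicate block, striatal marker and length terms, fewer groups, 1 library left out) are given in the closing section. A few members entered every fit and count but are not reported here by name. The named genes were otherwise the called members, the highest member of each subfamily, the 5 smallest p values of each comparison, the extremes of mean value and members with a library that stands apart. The members and lists were chosen with earlier results of these data known. The number of libraries, and for low genes the counts, limits the precision.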

Additional observations from a re-analysis of the deposited data

Results flagged for a closer look

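Among 28 of the members called in any comparison, 168 gene-by-arm sets were examined for a library far from the rest of its arm. Of these sets 23 (13.7%), in 16 genes, had one. The chance rate of about 1 in 20 was a set figure and was not computed over all genes. Whether 13.7% is more than chance was therefore not tested. Kcnk2 was high at 1682 normalized counts, with the nearest library at 1467, in HT lithium male 4, and at 1834 (nearest 1623) in WT lithium male 4. Kcna3 was low in HT lithium female 1, at 174 (nearest 295), and in WT vehicle male 2, at 57.9 (nearest 219). WT vehicle male 2 was also low for Kcnma1, at 6508 (nearest 9787). HT lithium female 1 was also low for Kcnq3, at 5579 (nearest 6882). HT fluoxetine male 3 was low for Hcn3, at 450.2 (nearest 672), for Kcna6, at 1918 (nearest 3430.4), and for Kcnj10, at 2064 (nearest 4173). Kcnc4 was low in HT lithium female 5, at 2327 (nearest 2840.1), and in WT vehicle female 1, at 2096 (nearest 2597).

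The other libraries that stood apart were high. HT lithium female 5 was high for Kcnab3, at 1592 (nearest 1102), and for Kcnip1, at 871 (nearest 698). HT lithium female 3 was high for Kcng1, at 2306 (nearest 2009), and for Kcnip3, at 5271 (nearest 4594). HT vehicle male 5 was high for Hcn3, at 775 (nearest 687), for Kcnh8, at 30.6 (nearest 15.6), and for Kcnmb2, at 115 (nearest 71.6). HT vehicle male 1 was high for Kcnh3, at 7158 (nearest 6451), and HT vehicle male 2 for Kcnq5, at 4109 (nearest 3437). WT vehicle female 1 was high for Hcn3, at 925 (nearest 728), WT fluoxetine male 4 for Kcnh8, at 44.8 (nearest 30.9), and WT lithium male 3 for Kcnmb2, at 106 (nearest 71.5).

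The sexes differed in the effect of genotype or of fluoxetine for 5 of the members described, by the test of the difference itself, which called 1.79% of all genes for the genotype effect on fluoxetine and 2.53% for fluoxetine in WT mice. On fluoxetine, the HT minus WT difference of Kcnt2 was -0.26 in females and 0.24 in males, a female minus male difference of -0.50 (limma adjusted p = 0.0467). In WT mice, the fluoxetine minus vehicle difference of Hcn2 was 0.20 in females and -0.11 in males, a female minus male difference of 0.31 (limma adjusted p = 0.0308). For Kcnd3 it was -0.17 in females and 0.37 in males, a female minus male difference of -0.54 (limma adjusted p = 0.026). For Kcnmb4, a BK beta subunit, it was 0.23 in females and -0.22 in males, a female minus male difference of 0.46 (limma adjusted p = 0.044), and for Kcnb2 -0.19 in females and 0.63 in males, a female minus male difference of -0.82 (limma adjusted p = 0.0369). Without WT vehicle male 2, the last 4 had adjusted p values between 0.0857 and 0.182. With the striatal marker level as a term, none of the 5 passed.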

How the results depend on the processing

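A pseudocount of 4 and no robust moderation left every count of called channel genes within 1.5 times its value. With no minimum mean, 15 were called among the 6 arms, 5 between the genotypes over the treatments, 0 for fluoxetine in HT mice, 0 for fluoxetine in WT mice and 1 for fluoxetine over the genotypes; a minimum mean of 50 gave 1 for lithium in HT mice. Quantile normalization gave 1 for fluoxetine in WT mice. When each fit held no other groups than those compared, the counts were 4 for lithium in WT mice, 1 for lithium in HT mice, 0 for fluoxetine in WT mice, 0 between the genotypes on vehicle and 1 on lithium. The striatal marker term gave 0 for fluoxetine in HT mice, 1 for lithium in HT mice and 1 between the genotypes on fluoxetine. The length term gave 2 for lithium in WT mice, 2 for lithium over the genotypes, none of them among the 17 called without it, 2 for fluoxetine in HT mice, 0 for fluoxetine in WT mice, 0 for fluoxetine over the genotypes and 1 between the genotypes on lithium. With both terms, chosen after seeing the data, these were 9, 3, 1, 0, 0 and 1, with 1 between the genotypes on fluoxetine. Without the 7 libraries high in striatal markers, also chosen after seeing the data, 5 were called between the genotypes over the treatments, 0 between them on vehicle, 0 for fluoxetine in WT mice, 0 for fluoxetine over the genotypes and 1 for lithium in HT mice. Of single genes, Kcna3 and Kcnq3 reversed for lithium over the genotypes, to -0.10 and -0.0307 with the length term and to -0.11 and -0.0267 with both terms; the cause was not tested. Leaving out each library in turn, the counts ran from 18 to 29 among the arms, 5 to 11 between the genotypes over the treatments, 0 to 2 on vehicle, 0 to 1 on fluoxetine and 0 to 1 on lithium. For lithium they ran from 11 to 21 in WT mice, 0 to 2 in HT mice and 13 to 22 over the genotypes, and for fluoxetine from 0 to 6 in WT mice, 0 to 1 in HT mice and 1 to 7 over the genotypes. The difference of the lithium effect ran from 0 to 1, and those of the fluoxetine effect and of sex stayed at 0. Libraries with the same replicate number had a median correlation of deviations of -0.00781 over 300 pairs, against 0.0006 over 1188 others. This cannot decide whether samples were paired, since the labels name no litter. The replicate numbers of some WT vehicle females also differ from the numbers in their library names. With the replicate block the calls were 0 for fluoxetine in WT mice, 1 for fluoxetine over the genotypes and 15 for lithium in WT mice. Members with means under 50, such as Kcnh8, are the ones that depth limits most.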
